A study of Mus musculus with 18 samples.

Results

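The genes described here are 10 genes that macrophages use to take apart and rebuild the matrix around them: the protease inhibitors Timp1 and Timp2, the matrix metalloproteinases Mmp9, Mmp12, Mmp13 and Mmp14, the plasminogen activator Plau, and the matrix proteins Thbs1, Spp1 and Col4a1. They were chosen by name with earlier results of these data known, and their probe sets by the symbol that the array's annotation gives. Shares over all genes are therefore set beside their counts as a description only. Of the 10 genes, 9 had at least 1 probe set with their symbol alone, out of 18193 genes with such a probe set in the whole table, and all 9 passed the filter on low signals. Spp1 (osteopontin) was not analysed here. The cells were RAW264.7, an established mouse macrophage-like line, grown as 1 line in culture. Gene expression was measured on 18 Affymetrix mouse genome arrays in 6 groups of 3: cells given vehicle (0.1% DMSO in medium), 10 µg/mL of an extract sub-fraction from St. John's wort (Hypericum perforatum), or a mixture of 4 compounds of that plant called the 4-component system (4CS), each without and with 10 µg/mL lipopolysaccharide (LPS) for 8 h. The mixture held amentoflavone at 0.07 µM, quercetin at 0.08 µM, chlorogenic acid at 0.2 µM and pseudohypericin at 0.03 µM. The labels give DMSO for the vehicle groups and do not say whether the fraction and the mixture were given in it. All 6 groups were treated in the dark and then had 30 min of ambient light. Whether arrays of the same group were separate cultures is not stated in the labels. The spread behind each p-value is that between arrays and may be technical.

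Matrix metalloproteinases are zinc enzymes, secreted or held at the cell surface, that cut collagens, elastin and many other extracellular proteins. They are made as inactive precursors and are blocked in tight complexes by the tissue inhibitors of metalloproteinases (TIMPs). Urokinase, the product of Plau, turns plasminogen into plasmin, which degrades fibrin and activates some of the precursors, and it acts at the cell surface through its receptor. LPS, a component of the outer membrane of Gram-negative bacteria, is sensed by macrophages through Toll-like receptor signalling, and activated macrophages are a known source of these enzymes in inflamed tissue.

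Mmp13 went from under the array median without LPS to well above it with LPS, and its promoter is shown because it holds both a short motif bound by AP-1 factors and a TATA box. The promoters of Timp1, which rose with LPS, and of Col4a1, which rose with the fraction, are shown for contrast. Promoter sequences came from RefSeq (mouse build GRCm38.p6), which had 7 of the 10 genes. Each is the stretch before the annotated start of the gene, read 5′ to 3′ on the gene's strand, with matches in capitals: the AP-1 motif TGANTCA, the NF-kB motif and the TATA box TATAAA were searched on both strands. The Mmp13 sequence is chr9:7272264-7272513 on the plus strand.
Mmp13: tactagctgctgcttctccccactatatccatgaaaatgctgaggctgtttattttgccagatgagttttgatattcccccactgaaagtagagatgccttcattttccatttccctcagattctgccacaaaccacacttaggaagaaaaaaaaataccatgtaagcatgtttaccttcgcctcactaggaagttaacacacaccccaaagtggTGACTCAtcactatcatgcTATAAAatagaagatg
The Timp1 sequence is chrX:20869916-20870165 on the plus strand.
Timp1: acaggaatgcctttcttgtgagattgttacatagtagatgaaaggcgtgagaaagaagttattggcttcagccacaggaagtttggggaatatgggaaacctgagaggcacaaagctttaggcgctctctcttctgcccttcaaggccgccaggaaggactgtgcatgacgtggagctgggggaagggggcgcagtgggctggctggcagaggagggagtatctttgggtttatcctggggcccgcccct
The Col4a1 sequence is chr8:11312890-11313076 on the minus strand, 187 bases, because the 63 bases nearest the annotated promoter's start site lie inside the longest gene model and were left out.
Col4a1: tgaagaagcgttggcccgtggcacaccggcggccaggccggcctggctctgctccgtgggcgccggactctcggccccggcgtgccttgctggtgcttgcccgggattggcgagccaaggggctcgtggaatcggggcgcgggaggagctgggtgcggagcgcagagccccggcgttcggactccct
In Mmp13 the AP-1 match TGACTCA lay 35 to 29 bases before the gene's start and the TATA box 16 to 11 bases before it. Over all 32851 promoters of 250 bases in the same table, 6.75% held the AP-1 motif, 7.25% the NF-kB motif and 12.4% the TATA box. The Timp1 and Col4a1 sequences held no match to any of the 3 motifs in these windows. Among the other genes, Mmp12 had an NF-kB match on the minus strand 129 to 120 bases before its start, and Spp1 had a TATA box 211 to 206 bases before its start. A match describes the letters of the window and was not tested for binding.

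Signals are given as intensities from the authors' MAS5 processing, a linear scale that puts every array on a 2% trimmed mean of 500.0. The median probe set of an array lay between 52.1 and 66.8, and many signals of these genes fell near it. Where the mean log2 signal of a group lay under the mean log2 array median, a fold against it is a lower bound, taken against that median and written "at least". With both groups under it no fold is given, and the log2 difference describes dim signals. Differences are in log2 units ± SE with 3 arrays a group, from 1 limma model of all 6 groups, and a gene was called at a Benjamini-Hochberg adjusted p under 0.05 over all 11547 genes tested. Arrays of 1 group correlated at r = 0.970 to 0.979 over log2 signals.

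**Figure D1:**
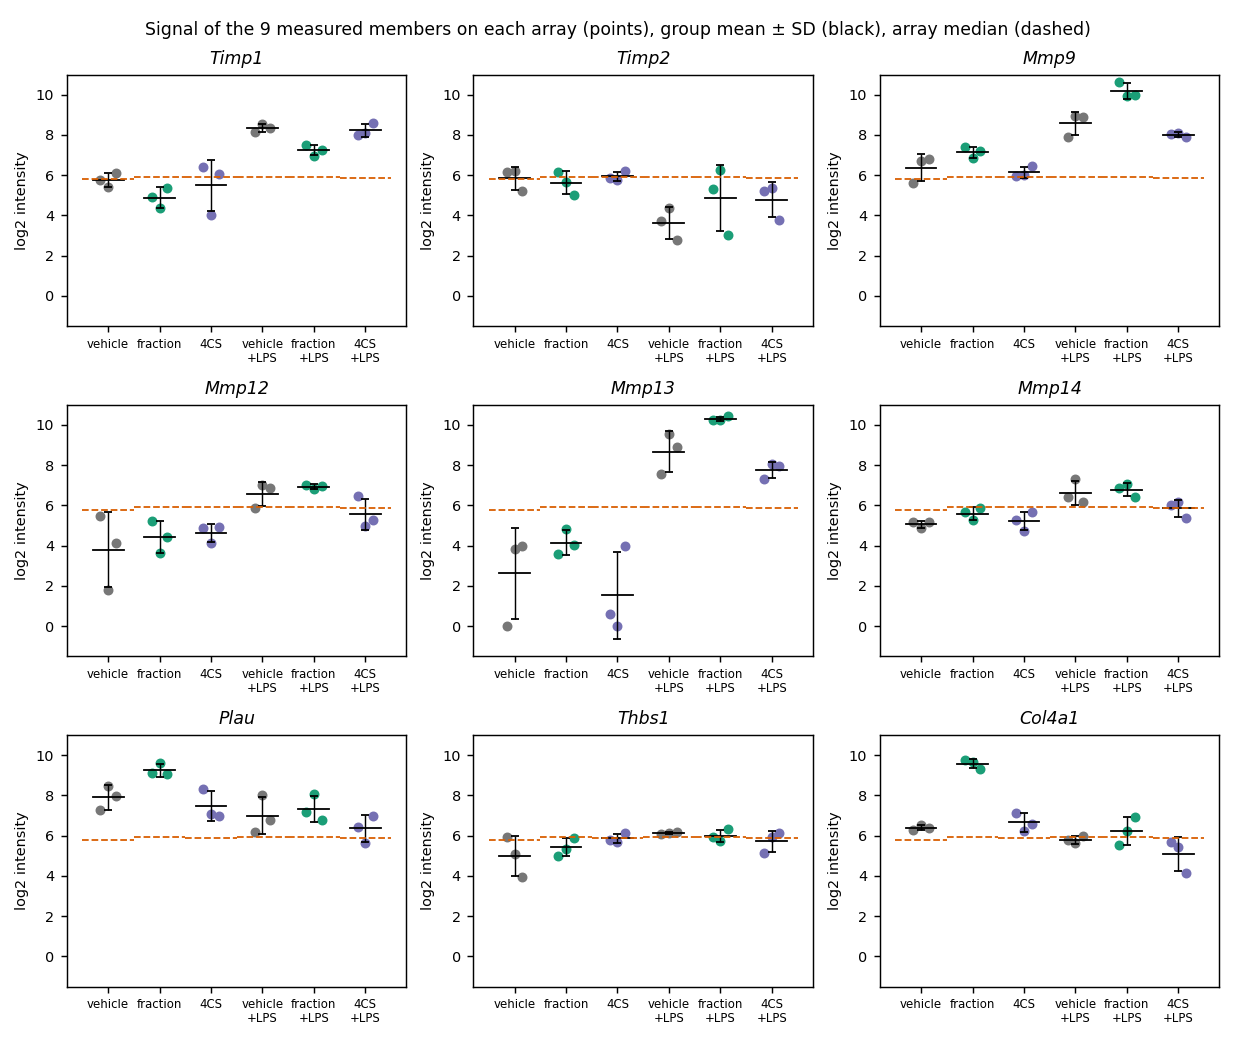
Log2 intensity of the 9 measured genes on each of the 18 arrays (points), by group, with the group mean and SD in black and the mean array median of the group dashed in orange. The Mmp13 points without LPS lie under the dashed line and those with LPS above it, and the Col4a1 points of the fraction without LPS (641 to 856 on the linear scale) stand above all other Col4a1 points.

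With LPS alone, 5 of the 9 genes rose (Mmp13, Mmp12, Timp1, Mmp9 and Mmp14) and 1 fell (Timp2). Over all genes tested, 31.9% were called in this comparison, 10.1% as higher and 21.8% as lower. The median log2 difference of the 9 genes was 1.56, against -0.07 over all genes. The arrays of both groups did not overlap for 8 of the 9 genes, against 41.5% of all genes. The filter kept probe sets at or above the array median on 3 or more arrays. Mmp13, Mmp12 and Mmp14 reached that median on no array without LPS, so only arrays with LPS brought them into the test. Timp1 and Thbs1 also passed the filter only with the help of arrays with LPS. Timp2, the gene that fell, passed only with the help of arrays without LPS. The place of these genes among the 9 thus depended on their signal in the LPS state where they were higher, and the counts and median are descriptions only. In fraction-treated cells LPS raised the same count of 5 (Mmp13, Mmp9, Mmp12, Timp1 and Mmp14) and lowered 2 (Col4a1 and Plau), where 37.3% of all genes were called, 11.5% as higher and 25.8% as lower. Arrays did not overlap there for 7 of the 9 genes, against 49.1% of all genes. In cells given the mixture it raised 3 (Mmp13, Timp1 and Mmp9) and lowered 1 (Col4a1), where 24.6% of all genes were called, 8.32% as higher and 16.3% as lower, and arrays were apart for 7 of the 9, against 40.3% of all genes. How far up and down calls balance over all genes depends on the scaling between arrays. With arrays centred on the median of the tested genes, every LPS difference in vehicle cells moved up by 0.19 and 2366 genes were called higher and 1351 lower, against 1161 and 2519 as reported. With arrays centred on the median of all probe sets the differences moved by -0.13, and 672 genes were called higher and 2936 lower. In fraction-treated cells the first centring gave 2582 higher and 1694 lower against 1330 and 2979, and with the mixture 1689 and 1092 against 961 and 1883.

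**Figure D2:**
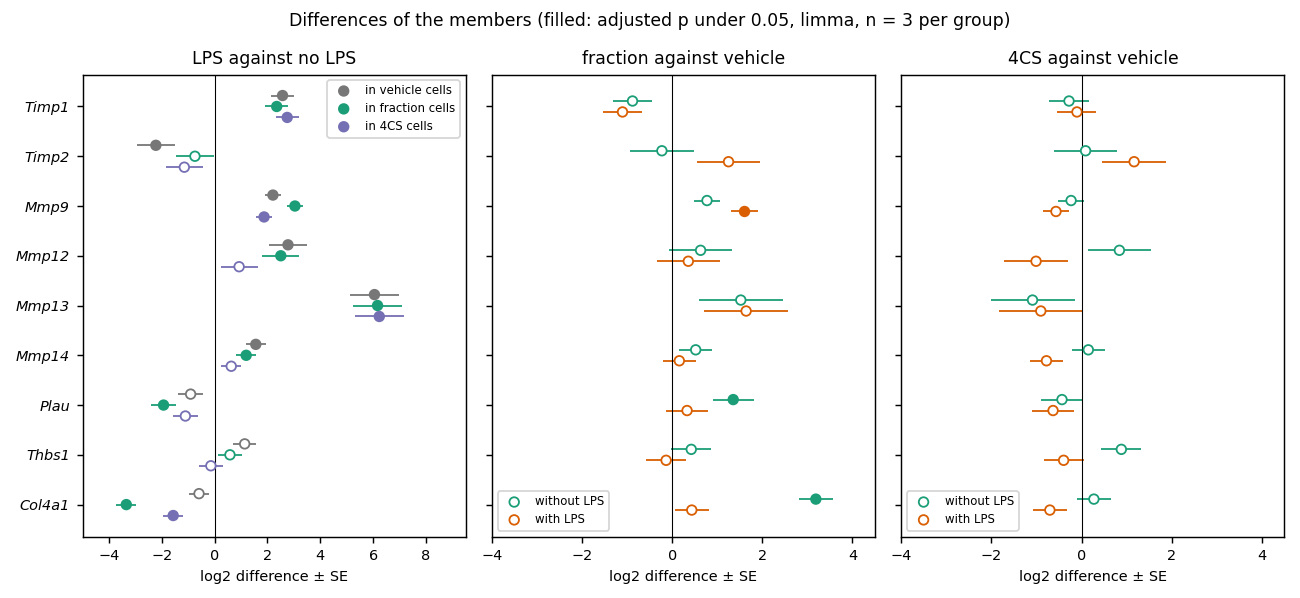
Log2 differences ± SE of the 9 genes for LPS against none within each treatment (left), the fraction against vehicle (middle) and the 4-component mixture against vehicle (right), with filled points for an adjusted p under 0.05 (limma, 3 arrays a group). Mmp13 lies at 6.05 to 6.23 for LPS in all 3 treatments, Col4a1 at 3.19 for the fraction without LPS and 0.43 with LPS, and no point of the mixture is filled.

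Timp1, on chromosome X (chrX:20870166-20874737, GRCm38.p6), encodes a secreted inhibitor that is itself known as an inducible gene. Its intensities were 54.9, 42.7 and 69.0 in vehicle cells and 281, 367 and 328 after LPS. In fraction-treated cells they were 30.7, 20.4 and 41.4 without LPS and 178, 125 and 154 with it. With the mixture they were 84.8, 16.2 and 65.8 without LPS and 258, 273 and 389 with it. Every array with LPS was above every array without it. The LPS difference was 2.57 ± 0.43 in vehicle cells (adjusted p = 1.3e-04, at least 5.84-fold), 2.35 ± 0.43 in fraction-treated cells (adjusted p = 2.5e-04, at least 2.50-fold) and 2.75 ± 0.43 with the mixture (adjusted p = 9.6e-05, at least 5.05-fold). Within LPS, the 3 arrays of the fraction were below all arrays of the other 2 treatments. Against vehicle with LPS the difference was -1.10 ± 0.43, a 2.15-fold lower level, with an adjusted p of 0.073 that did not pass the threshold. That difference passed in 7 of 30 alternative settings, with adjusted p-values over all of them from 4.1e-04 to 0.18. Leaving out array 2 of the mixture without LPS, the lowest Timp1 signal of its group, brought the adjusted p to 0.0064 through the shared estimate of the spread.

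Timp2 (chr11:118301061-118355411) encodes an inhibitor that also takes part in activating a gelatinase precursor at the cell surface. Of its 6 probe sets 1 was kept, which passed the filter only with the help of arrays without LPS. Its signals were dim: 70.9, 73.4 and 36.7 in vehicle cells and 13.4, 20.7 and 6.76 after LPS. In fraction-treated cells they were 71.1, 51.4 and 32.5 without LPS and 40.4, 75.9 and 8.21 with it. With the mixture they were 57.5, 53.9 and 74.1 without and 37.4, 41.0 and 13.8 with LPS. The vehicle groups did not overlap, and LPS gave -2.22 ± 0.71 (adjusted p = 0.021). No fold is given, since the LPS arrays lay under the array median and the mean of the vehicle arrays only just over it, with 1 of the 3 under it. The call was lost when signals under the array median were set to it (-0.14, adjusted p = 0.51) and without vehicle array 1, vehicle array 2 or vehicle array 3 with LPS (adjusted p = 0.070, 0.072 and 0.093), and without the 6 arrays numbered 1 (adjusted p = 0.15). The difference with LPS was -0.75 ± 0.71 in fraction-treated cells (adjusted p = 0.45) and -1.15 ± 0.71 with the mixture (adjusted p = 0.27). The LPS responses were not shown to differ from that of vehicle cells. The interaction was 1.48 ± 1.00 for the fraction (adjusted p = 0.56) and 1.08 ± 1.00 for the mixture (adjusted p = 0.999).

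Mmp9 (chr2:164940326-164955850) encodes gelatinase B, which cuts denatured collagens and the type IV collagen of basement membranes. It was the one metalloproteinase of the 4 whose difference between fraction and vehicle passed the threshold. Its intensities in vehicle cells were 48.5, 105 and 111, and after LPS 241, 486 and 476. In fraction-treated cells they were 167, 116 and 145 without LPS and 1573, 989 and 1006 with it. In cells given the mixture they were 62.4, 64.5 and 86.7 without LPS and 265, 274 and 236 with it. The 3 arrays of fraction plus LPS were above the other 15 arrays, and the vehicle and mixture arrays overlapped in both LPS states.

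LPS raised Mmp9 by 2.21 ± 0.30 in vehicle cells (4.62-fold, adjusted p = 1.2e-05), by 3.04 ± 0.30 in fraction-treated cells (8.22-fold, adjusted p = 1.7e-07) and by 1.87 ± 0.30 with the mixture (3.66-fold, adjusted p = 1.0e-04). With LPS, the fraction was above vehicle by 1.61 ± 0.30 (3.04-fold, adjusted p = 5.6e-04) and above the mixture by 2.17 ± 0.30 (4.51-fold, adjusted p = 2.1e-05). Without LPS, the fraction was above the mixture by 1.00 ± 0.30 (2.01-fold, adjusted p = 0.014, and 0.057 without fraction array 1). Against vehicle without LPS the difference was 0.77 ± 0.30 (1.71-fold), with no overlap of the arrays and an adjusted p of 0.055. It passed in 5 of 31 alternatives, 3 of which left out 1 array (vehicle array 2, vehicle array 3 or vehicle array 1 with LPS), with adjusted p-values over all 31 from 0.029 to 0.37. The LPS response of the fraction exceeded that of vehicle by 0.83 ± 0.42, which did not pass the threshold (interaction, adjusted p = 0.40). A second probe set gave 1.41 ± 0.28 for fraction against vehicle with LPS (adjusted p = 0.0013, limma over all kept probe sets) and 0.71 ± 0.28 for fraction against the mixture without LPS (adjusted p = 0.068).

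Mmp13 (chr9:7272514-7283333) encodes collagenase 3, which cuts fibrillar collagens, and read under the array median on all arrays without LPS. Its intensities in vehicle cells were 0.878, 14.5 and 16.0, and after LPS 188, 751 and 475. In fraction-treated cells they were 11.98, 28.3 and 16.1 without LPS and 1204, 1230 and 1371 with it. In cells given the mixture they were 1.52, 0.821 and 15.9 without LPS and 158, 265 and 244 with it. All arrays without LPS read at most 28.3, under their array medians, all with LPS at least 158, and the 3 arrays of fraction plus LPS stood above the other 15.

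The LPS difference of Mmp13 was 6.05 ± 0.93 in vehicle cells (adjusted p = 5.3e-05, at least 7.34-fold), 6.17 ± 0.93 in fraction-treated cells (adjusted p = 3.0e-05, at least 20.95-fold) and 6.23 ± 0.93 with the mixture (adjusted p = 5.5e-05, at least 3.63-fold). These log2 differences rest on signals as low as 0.821, which were set to 1 before the log2 step. With LPS, the fraction was 1.64 ± 0.93 above vehicle (3.12-fold, no overlap), with an adjusted p of 0.23. In 3 of 31 alternatives this difference passed, all of which weight dim signals less or fit only the groups compared: log2(value + 32) gave an adjusted p of 0.0012, low signals set to the array median 9.5e-04 and the compared groups alone 0.015. Against the mixture with LPS the fraction was 2.54 ± 0.93 higher (5.83-fold, adjusted p = 0.048), a call that was lost in 16 of 31 alternatives, leaving out any 1 of the 6 arrays compared among them (adjusted p up to 0.14). Without LPS the same pair differed by 2.61 ± 0.93 (adjusted p = 0.038) with all signals under the array median and arrays that overlapped, and that call was lost in 10 of 31. It fell to 0.02 (adjusted p = 0.98) with low signals set to the array median and to 0.43 (adjusted p = 0.34) with log2(value + 32), and it was lost without array 1 or 2 of the mixture and without array 2 or 3 of the fraction.

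Mmp12 (chr9:7344397-7360461) encodes macrophage elastase, which cuts elastin. Its intensities were 44.1, 3.47 and 17.5 in vehicle cells and 58.9, 127 and 115 after LPS. In fraction-treated cells they were 37.0, 12.5 and 21.5 without LPS and 131, 113 and 123 with it. With the mixture they were 29.0, 17.5 and 30.3 without LPS and 87.2, 31.7 and 38.2 with it. All 3 pairs of groups were apart, but the LPS difference passed in vehicle cells (2.78 ± 0.70, adjusted p = 0.0047, at least 1.72-fold) and fraction-treated cells (2.50 ± 0.70, adjusted p = 0.0081, at least 2.02-fold) and not with the mixture (0.93 ± 0.70, adjusted p = 0.38). The test of that gap, the interaction of mixture and LPS, gave -1.85 ± 0.99 (adjusted p = 0.999), so the LPS responses were not shown to differ.

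Mmp14 (chr14:54431598-54442456) encodes a membrane-anchored collagenase that activates other metalloproteinases at the cell surface. Of its 3 probe sets 1 was kept. Its intensities were 36.5, 29.3 and 35.6 in vehicle cells and 86.4, 157 and 71.4 after LPS. In fraction-treated cells they were 50.9, 38.2 and 57.9 without LPS and 117, 135 and 85.1 with it. In cells given the mixture they were 38.3, 26.7 and 50.6 without LPS and 65.6, 71.5 and 40.9 with it. LPS raised Mmp14 by 1.56 ± 0.37 in vehicle cells (adjusted p = 0.0031, at least 1.79-fold) and by 1.19 ± 0.37 in fraction-treated cells (adjusted p = 0.016, at least 1.83-fold), without overlap in either. The second call was lost without fraction array 2, without fraction array 2 with LPS and without the 6 arrays numbered 1, with adjusted p-values up to 0.12. With the mixture the difference was 0.63 ± 0.37 (adjusted p = 0.25) and the arrays overlapped. The LPS response was not shown to differ between mixture and vehicle (interaction -0.93 ± 0.53, adjusted p = 0.999).

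Plau (chr14:20836662-20843388), which encodes urokinase, was higher with the fraction in cells without LPS. Its intensities were 153, 356 and 249 in vehicle cells, 549, 783 and 526 with the fraction and 323, 134 and 127 with the mixture. With LPS they were 72.0, 256 and 111 in vehicle cells, 142, 265 and 108 with the fraction and 86.7, 50.4 and 126 with the mixture. The 3 arrays of the fraction without LPS were above the other 15, and the 3 groups with LPS overlapped.

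Without LPS, 2 of the 9 genes rose with the fraction against vehicle, Col4a1 and Plau, and none fell, where 31.2% of all genes were called, 15.9% as higher and 15.3% as lower. Centred on all probe sets, 940 genes were called higher and 1968 lower there, against 1837 and 1771 as reported. Arrays of fraction and vehicle were apart for 5 of the 9 genes, against 42.9% of all genes, and the median log2 difference was 0.63 (0.02 over all genes). Plau differed by 1.35 ± 0.46 (2.56-fold, adjusted p = 0.030) from vehicle and by 1.79 ± 0.46 (3.46-fold, adjusted p = 0.0053) from the mixture. The call against vehicle was lost without vehicle array 1 (1.03, adjusted p = 0.14), vehicle array 3 (adjusted p = 0.060), fraction array 1 (adjusted p = 0.052) or fraction array 2 (adjusted p = 0.11), without the 6 arrays numbered 1 (adjusted p = 0.11) and without the intensity trend (adjusted p = 0.067). A second Plau probe set gave 1.16 ± 0.36 (adjusted p = 0.024, limma over all kept probe sets). LPS lowered Plau in fraction-treated cells by 1.93 ± 0.46 on the log2 scale (3.82-fold, adjusted p = 0.0025). In vehicle cells the LPS difference was -0.91 ± 0.46 (adjusted p = 0.15, and 0.029 without vehicle array 2 with LPS) and with the mixture -1.11 ± 0.46 (adjusted p = 0.087). The LPS response was not shown to differ between fraction and vehicle (interaction -1.02 ± 0.65, adjusted p = 0.54), and with LPS the fraction and vehicle differed by 0.33 ± 0.46 (adjusted p = 0.66).

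The receptor of urokinase, Plaur, is no member of the 10 but is the partner through which urokinase acts at the cell surface. Its intensities were 2240, 2716 and 2871 in vehicle cells, 1124, 1125 and 963 with the fraction and 1828, 2373 and 2473 with the mixture. With LPS they were 8020, 8979 and 8967 in vehicle cells, 8440, 8008 and 8230 with the fraction and 8513, 8925 and 9313 with the mixture. Without LPS Plaur fell with the fraction by 1.28 ± 0.11 on the log2 scale (adjusted p = 3.6e-08), where Plau rose. LPS raised it by 1.74 ± 0.11 in vehicle cells (adjusted p = 6.4e-10) and by 2.94 ± 0.11 in fraction-treated cells (adjusted p = 3.0e-13), and the interaction was 1.21 ± 0.15 (adjusted p = 2.3e-04). Serpinb2, an inhibitor of urokinase, was under the array median in all 3 groups without LPS and read 168, 365 and 198 in vehicle cells with LPS (4.46 ± 0.92, adjusted p = 9.3e-04, at least 4.15-fold).

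**Figure D3:**
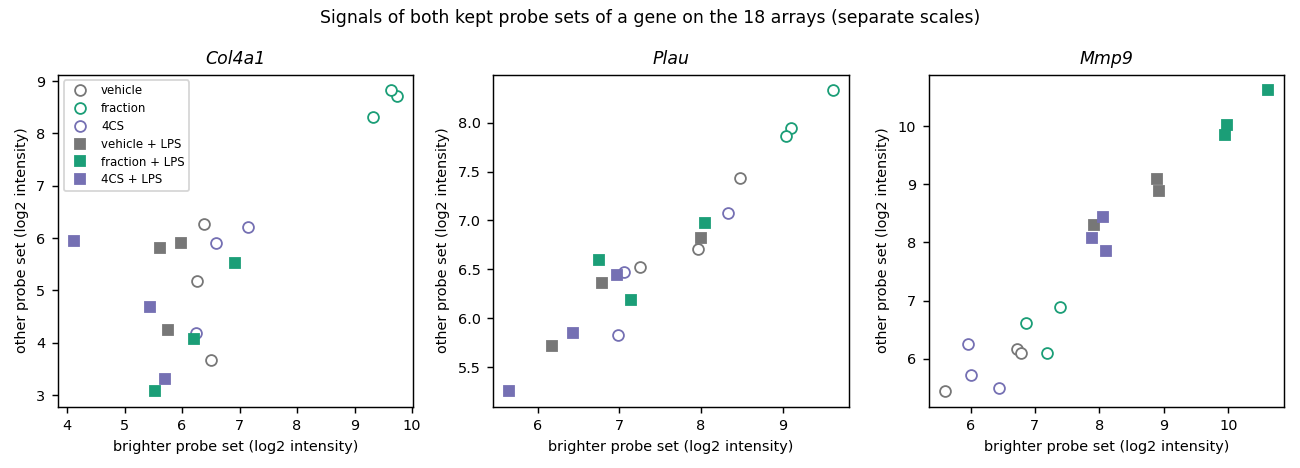
Log2 intensity of the brighter probe set (x axis) and the other kept probe set (y axis) of Col4a1, Plau and Mmp9 on the 18 arrays, each on its own scale, by treatment (colour) and LPS (filled). For Col4a1 the 3 arrays of the fraction without LPS stand apart from the other 15 on both probe sets, for Plau the same 3 arrays are highest on both, and for Mmp9 the 3 arrays of fraction plus LPS are highest on both. The other Col4a1 probe set passed the filter only with the help of the fraction arrays without LPS.

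Col4a1 (chr8:11198423-11312889) encodes a chain of type IV collagen, the network-forming collagen of basement membranes, and had the largest difference of the 9 genes between fraction and vehicle. Its intensities were 76.3, 91.0 and 83.3 in vehicle cells, 856, 797 and 641 with the fraction and 141, 75.5 and 95.8 with the mixture. With LPS they were 54.3, 49.1 and 63.5 in vehicle cells, 46.4, 74.3 and 121 with the fraction and 52.2, 43.3 and 17.4 with the mixture. The fraction without LPS stood alone at the top, and with LPS the fraction and vehicle arrays overlapped near the array median.

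Without LPS the fraction raised Col4a1 by 3.19 ± 0.37 against vehicle (9.11-fold, adjusted p = 2.5e-06) and by 2.91 ± 0.37 against the mixture (7.53-fold, adjusted p = 7.0e-06). With LPS the difference from vehicle was 0.43 ± 0.37 (adjusted p = 0.45). LPS lowered Col4a1 in fraction-treated cells by 3.34 ± 0.37 on the log2 scale (10.15-fold, adjusted p = 8.5e-07), while in vehicle cells the LPS difference was -0.59 ± 0.37 (adjusted p = 0.25, at least 1.37-fold). Vehicle cells with LPS lay under the array median and those without LPS not far above it. A fall as large as with the fraction could thus not have been read in vehicle cells. The test of the difference between both LPS responses passed: the interaction of fraction and LPS was -2.75 ± 0.53 (adjusted p = 0.0082), and Col4a1 was the only one of the 9 genes it called, where 2.14% of all genes were called, 0.892% as higher and 1.25% as lower. Without the 6 arrays numbered 1 it was -2.27 with an adjusted p of 0.070.

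The second Col4a1 probe set read 36.4, 12.7 and 77.4 in vehicle cells, 423, 457 and 318 with the fraction, and 8.41, 16.8 and 46.3 with fraction plus LPS. It reached the array median on all 3 arrays of the fraction without LPS, on 1 vehicle array, on 1 array of the mixture and on none with LPS. It thus passed the filter only with the help of the group where it was highest, and its values are no separate support. The means of all other groups lay under the array median. It gave 3.58 ± 0.76 for the fraction against vehicle (adjusted p = 0.0017), -4.40 ± 0.76 for LPS in fraction-treated cells (adjusted p = 1.9e-04) and -4.68 ± 1.08 for the interaction (adjusted p = 0.041, limma over all kept probe sets). For fraction against vehicle with LPS it gave -1.10 ± 0.76 (adjusted p = 0.36), and for LPS in vehicle cells 0.28 ± 0.76 (adjusted p = 0.84). Both signs were opposite to those of the brighter probe set, and neither probe set passed the threshold there. On 2 further comparisons only the brighter one passed it. With the brighter one, LPS lowered Col4a1 in cells given the mixture by 1.57 ± 0.37 (adjusted p = 0.0038, at least 1.73-fold), against -0.79 ± 0.76 with the other (adjusted p = 0.54). The brighter one put fraction plus LPS above mixture plus LPS by 1.14 ± 0.37 (adjusted p = 0.027, at least 1.29-fold, arrays overlapping), where the other gave -0.42 ± 0.76 (adjusted p = 0.76). The last call was also lost without array 2 or 3 of fraction plus LPS or array 3 of mixture plus LPS.

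Thbs1 (chr2:118111876-118127133) encodes thrombospondin-1, a matricellular protein that binds cell surface receptors and can activate latent TGF-beta. Its intensities were 61.7, 33.8 and 15.3 in vehicle cells, 31.99, 40.5 and 59.3 with the fraction and 55.9, 51.5 and 69.5 with the mixture. With LPS they were 67.7, 69.0 and 72.8 in vehicle cells, 60.5, 53.3 and 79.7 with the fraction and 35.0, 61.6 and 68.9 with the mixture. Vehicle cells with and without LPS did not overlap (1.14 ± 0.44, at least 1.26-fold), but the adjusted p was 0.058. The difference passed in 4 of 30 alternatives, 1 of them without vehicle array 1, with adjusted p-values over all of them from 0.012 to 0.30. All other Thbs1 comparisons had adjusted p-values of at least 0.34. One further probe set carries Thbs1 together with Pald1 and was not used.

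Between fraction and vehicle with LPS, Mmp9 alone of the 9 genes was called higher and none lower, where 23.8% of all genes were called, 11.1% as higher and 12.7% as lower. Arrays were apart for 3 of the 9 genes, against 36.1% of all genes, and the median log2 difference was 0.36 (-0.02 over all genes). The share of called genes among the 9 did not exceed that background in either LPS state. Against the mixture the fraction was higher in 4 genes without LPS (Col4a1, Mmp13, Plau and Mmp9, with Mmp13 under the array median in both groups) and in 3 with LPS (Mmp13, Mmp9 and Col4a1), and lower in none. Over all genes 32.4% were called in the first of these, 17.0% as higher and 15.4% as lower, and 28.2% in the second, 12.0% as higher and 16.2% as lower. Arrays of fraction and mixture were apart for 3 of the 9 genes without LPS (44.7% of all genes) and for 5 with LPS (42.8%). The comparisons with vehicle and with the mixture share the fraction arrays.

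The 4-component mixture, which holds compounds of the plant at fixed doses, was not shown to change any of the 9 genes against vehicle: 0 of 9 passed in limma with or without LPS, 0 of 9 had an unadjusted p under 0.05, and 0 of the 11547 genes passed in either state (565 without and 934 with LPS at an unadjusted p under 0.05). Arrays were apart for 0 of the 9 genes in either state, against 8.31% of all genes without LPS and 12.6% with it. With LPS, the 95% interval of the difference from vehicle was -1.19 to 0.05 for Mmp9, -2.85 to 1.04 for Mmp13, -1.01 to 0.80 for Timp1 and -2.48 to 0.46 for Mmp12. Without LPS it was -0.50 to 1.05 for Col4a1 and -1.40 to 0.53 for Plau. Over all kept probe sets, Mmp14 (unadjusted p = 0.046) and the second Mmp9 probe set (unadjusted p = 0.035) with LPS were under 0.05 before adjustment, with adjusted p-values of 0.64 and 0.63. Leaving out 1 array took the calls over all genes with LPS from 0 to as many as 191, none of them among the 9. These intervals leave room for changes of more than 1 log2 unit in several of the genes.

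The order of the group means shows 3 patterns among the 9 genes. Mmp9, Mmp13, Mmp12 and Mmp14 shared the same order within LPS, fraction above vehicle above mixture. For Mmp9 and Mmp13 the fraction arrays were apart from the vehicle arrays there, and for Mmp12 and Mmp14 they overlapped. Vehicle and mixture overlapped there for all 4. For Timp1 the order within LPS was vehicle above the mixture (overlapping) above the fraction (apart), so the fraction was lowest there. Plau and Col4a1 were highest with the fraction without LPS, apart from the next group, and all lower neighbours overlapped. The neighbours of Timp2 and Thbs1 in the order of means overlapped throughout.

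Over the 18 arrays the genes with the highest Pearson correlation of log2 signal to Timp1 were Tnc (r = 0.948), Socs3 (r = 0.945) and Tasor2 (r = 0.942). For Mmp9 they were Ercc1 (r = 0.975), Sema3e (r = 0.971) and Clec4e (r = 0.969), and for Mmp13 Vgf (r = 0.967), Hcar2 (r = 0.960) and Clec4e (r = 0.957). Col4a1 was closest to Dnase1l1 (r = 0.934), Fbxw4 (r = 0.934) and Phyh (r = 0.928), and Plau to Tbc1d5 (r = 0.927), Ndrg4 (r = 0.921) and Zbtb2 (r = 0.909). For the other 4 genes the highest r was between 0.827 and 0.883. These are descriptions over arrays that share groups and scaling.

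A list of 191 other genes of matrix turnover had 99 members that could be tested. With LPS in vehicle cells 21 rose and 8 fell (29.3%, against 31.9% of all genes), with a median log2 difference of 0.22. Of 6 plasminogen system genes 3 rose: Serpinb2, Plaur and S100a10 (0.22), which tethers plasminogen at the surface. Of 12 other metalloproteinases none rose and Adamts10 fell. Of 18 matrix receptors 7 rose and 5 fell, among them the adhesion receptors Itgb7 (2.41), Sdc4 (2.31) and Itga5 (1.46). Itgb7 was under the array median in vehicle cells, so its rise was at least 2.16-fold, and the Itga5 probe set is of a kind open to cross-hybridization. Of 13 matricellular and matrix proteins 2 rose, Tnc (5.08 ± 0.32, adjusted p = 6.4e-10) and Srgn (0.53). Tnc, which encodes tenascin-C, read 54.3, 42.9 and 48.5 in vehicle cells and 1074, 2095 and 1922 after LPS.

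In the remaining lists LPS in vehicle cells raised 4 of 10 genes of matrix crosslinking and processing, among them the protease Furin (1.01), the lysyl oxidase Loxl4 (1.35) and the transglutaminase Tgm2 (1.32), and lowered none (10.1% of all genes were called higher). Loxl4 and Tgm2 were under the array median in vehicle cells, which bounds their rise at 1.44-fold and 1.38-fold or more. Of 8 other protease inhibitors 2 rose, Serpinb9 (2.12) and Slpi (0.88), and Serpinb8 fell (-1.49). Of 14 cathepsins, proteases mostly of the lysosome, 2 rose, Ctsc (0.52) and Ctsb (0.29), and Lgmn fell (-0.30). Of 18 other collagen and basement membrane genes 1 rose, Agrn (0.78). The calls in these last 3 lists, 3 of 8, 3 of 14 and 1 of 18, compare with 31.9% of all genes.

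**Figure D4:**
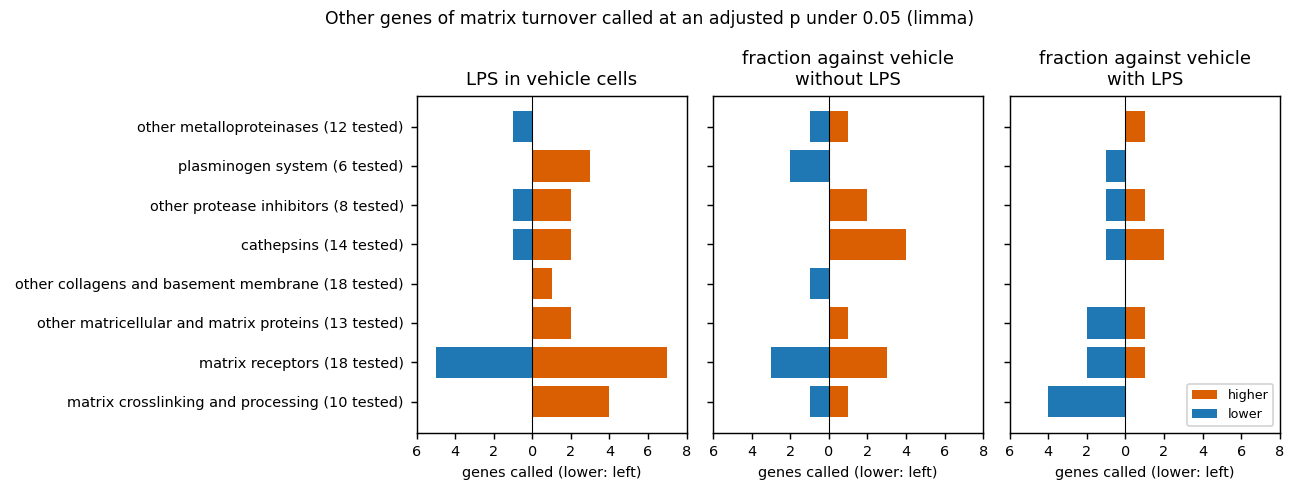
Number of genes called higher (right) and lower (left) in 8 lists of other matrix genes, at an adjusted p under 0.05 (limma), in 3 panels: LPS against none in vehicle cells, then fraction against vehicle without LPS and with LPS. For LPS, 7 of 18 matrix receptors were called higher and 5 lower, where 10.1% and 21.8% of all genes were. With the fraction without LPS, 4 of 14 cathepsins were called higher, where 15.9% of all genes were. With the fraction under LPS, 4 of 10 crosslinking and processing genes were called lower, where 12.7% of all genes were.

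With the fraction against vehicle without LPS, 12 of the 99 genes rose and 8 fell (20.2%, against 31.2% of all genes). Of the 14 cathepsins 4 rose, led by Ctso (0.60), Ctsb (0.37) and Lgmn (0.37), and none fell. Of the 18 other collagen and basement membrane genes, the list nearest to Col4a1, none rose and Agrn fell (-0.81). In the plasminogen system Plaur and S100a10 (-0.47) fell and none rose. Among receptors 3 rose and 3 fell, among them Sdc1 (-1.42), Itgb5 (0.84, a probe set open to cross-hybridization) and Itgb7 (2.29, at least 1.99-fold, as vehicle cells were under the array median). Serpinb9 (1.83) and Serpinb6a (0.45) rose among the 8 other inhibitors, Tgm2 (1.14, at least 1.22-fold) rose and P4ha1 (-0.32) fell among crosslinking genes, Adam9 (0.37) rose and Adam15 (-0.31, a probe set open to cross-hybridization) fell among metalloproteinases, and Lgals3 (0.40) rose among matricellular proteins.

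With the fraction against vehicle under LPS, 6 of the 99 genes rose and 11 fell (17.2%, against 23.8% of all genes). Of the 10 crosslinking and processing genes 4 fell, among them Plod1 (-0.58), the prolyl hydroxylase subunit P4ha1 (-0.56) and Loxl4 (-1.37, at least 1.31-fold, as fraction plus LPS was under the array median), and none rose. Tnc fell (-1.04 ± 0.32, adjusted p = 0.021), with 1038, 617 and 776 in fraction plus LPS, as did Emilin2 (-0.35), while Lgals3 (0.40) rose. Slpi (1.56), an inhibitor of neutrophil elastase, rose and Serpinb8 (-0.86) fell. Itgb5 (1.20) rose among receptors, and Hmmr (-0.72) and Itga4 (-0.27) fell. Ctsb (0.28) and Ctsl (0.28) rose and Ctsc (-0.58) fell, Adam9 (0.34) rose, and S100a10 (-0.49) fell. None of the 18 other collagen and basement membrane genes passed in limma, and 1 had an unadjusted p under 0.05. The interaction of fraction and LPS called 2 of the 99 genes, Plaur and Agrn (0.83, adjusted p = 0.049), both higher, which is 2.02% against 2.14% of all genes.

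Markers of the labelled cell type and of others were read on the same arrays. All 8 macrophage markers were above the array median in every group, with a summed intensity of 75857 to 110801. Their levels were not constant. With LPS in vehicle cells 5 of the 8 were called higher and none lower, where 10.1% of all genes were called higher. Between fraction and vehicle, Ptprc was higher without LPS (0.53), where 31.2% of all genes were called. With LPS, Adgre1 (0.33) and Ptprc (0.33) were higher and Itgam (-0.58) lower, where 23.8% were called. Of 7 fibroblast markers 2 could be tested, Col1a2 and Dcn, with a summed intensity of 31.9 to 81.8 in vehicle cells, 49.0 to 80.6 with the fraction and 82.2 to 180.5 in vehicle cells with LPS. Both were under the array median in vehicle and fraction-treated cells. Of 5 endothelial markers 1 could be tested, Kdr, at 54.6 to 76.2 in vehicle cells and 43.4 to 86.1 with the fraction. Of the epithelial markers 3 of 5 were tested, with a sum of 111 to 154 in vehicle cells and 243 to 284 in vehicle cells with LPS, where Epcam was called higher (1.75 ± 0.46, adjusted p = 0.0060), of the neutrophil markers 2 of 4 (67.8 to 123 in the latter), and of the lymphocyte markers 0 of 5. Kdr read 9.81 to 59.8 with the mixture and was called higher with the fraction than with the mixture without LPS (1.52 ± 0.53, adjusted p = 0.034, arrays overlapping), a comparison in which Col4a1, Plau, Mmp9 and Mmp13 were also higher. The part of these markers in the Col4a1 differences was not tested. The fibroblast and epithelial sums were higher with LPS than without it in vehicle cells, and their part in the LPS differences was not tested. In whole cultures, fewer cells of a type and less RNA per cell cannot be told apart.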

How the data were processed

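RNA of RAW264.7 cells was hybridized to 18 one-colour arrays, 3 in each of 6 groups. The authors deposited 1 linear intensity for each of 45101 probe sets, made with MAS5 per the submitters' processing notes; its version is not given in the sources used here. Control probe sets (64) were left out. A platform annotation gave 1 symbol to 34945 probe sets, several to 932 and none to 9160. Of these symbols 34741 were matched to RefSeq by Entrez ID and 204 kept the annotation's symbol.

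Before the log2 step, values under 1 (0.823% of all) were raised to 1. Probe sets at or above the array median on 3 or more arrays were kept (25612, of which 21553 had 1 symbol), and a gene with several (5575 of 11547 genes) was represented by its brightest. Of 20 probe sets of the measured members 12 were kept. The 8 others read 0.933 to 78.5, with 3 of 144 values at or over the array median. One model of 6 group means was fitted with limma 3.58.1 in R 4.3.3 with 12 residual degrees of freedom and moderated variances that follow a trend with intensity, with 11 two-sided contrasts and Benjamini-Hochberg adjustment over all genes at 0.05. The script was tested on simulated data. The number of arrays limits the precision.

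The members and lists were chosen with earlier results of these data known. All 9 measured members are described, and of each list at most 3 called genes with the largest difference are named. Plaur, Tnc and, in vehicle cells with LPS, Serpinb2 are given by array, and that choice was made after their values were seen. Deviations of same-numbered arrays from their group means correlated at 0.018 to 0.170 (median 0.088), at over 0.1 in 9 of 45 pairs of arrays. All of these correlations were positive. Deviations cancel within each group, so those of arrays with different numbers covary negatively on balance. Same-numbered arrays thus shared a small part of their deviations, and the source of this was not tested. The main model left the number out, and a block on it was run as an alternative. Alternatives were quantile and median scaling, log2(value + 32), filters, probe set choice, the trend, the groups in the fit, a block on the number and arrays left out.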

Additional observations from a re-analysis of the deposited data

Results flagged for a closer look

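The effect of the fraction on Col4a1 differed between cells without and with LPS. The interaction was -2.75 on the log2 scale (limma, adjusted p = 0.0082). With the brighter probe set the fraction was 3.19 ± 0.37 above vehicle without LPS and 0.43 ± 0.37 above it with LPS. Vehicle cells with LPS lay under the array median there, so the difference with LPS is only a bound (at least 1.23-fold). The LPS fall in vehicle cells is a bound for the same reason. The second probe set passed the filter only with the help of the fraction arrays without LPS. It put the fraction below vehicle with LPS (-1.10 ± 0.76, adjusted p = 0.36, limma over all kept probe sets). The interaction was picked out because the difference between both effects was itself tested and passed the threshold. Groups of 3 arrays are too small for a test of single outlying arrays, and none was made.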

How the results depend on the processing

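Of 99 gene results (9 genes, 11 comparisons), 28 passed the threshold, 19 of them under every alternative run and 9 not under at least 1. Of the 71 others, 12 passed under at least 1, and no called difference changed sign. The fraction against vehicle with LPS called 1 gene, but 2 with the replicate block, 2 with quantile normalization, and 3 with log2(value + 32), with low signals at the array median or with only the compared groups (1 to 2 leaving out 1 array). The fraction against the mixture with LPS called 3, but 6 with log2(value + 32), 5 with low signals at the array median, 5 with only the compared groups and 1 with the mean of kept probe sets (1 to 4 leaving out 1 array). The fraction against vehicle without LPS called 2, but 1 without the intensity trend or without the 6 arrays numbered 1, and 3 with the replicate block or the mean of kept probe sets (1 to 3 leaving out 1 array). The interaction of fraction and LPS called 1, but 2 with low signals at the array median and 0 without the 6 arrays numbered 1. A filter at the 75th percentile left 4 genes, of which LPS called 2 in vehicle cells (6 as reported) and 4 in fraction-treated cells (7 as reported). The causes were not tested, beyond the fewer genes left by the filter. The replicate block changed the calls of Timp1 (adjusted p = 0.031) and Mmp9 without LPS (adjusted p = 0.046) among differences between fraction and vehicle, and of Timp1 between fraction and mixture with LPS. Over all genes, calls of the mixture against vehicle rose from 0 to at most 191 with LPS and 5 without. Those of LPS with the mixture ranged from 1851 to 3390 around 2844, and those of the fraction against vehicle with LPS from 1762 to 3337 around 2746. Those of the interaction of fraction and LPS ranged from 86 to 467 around 247, and the mixture by LPS interaction went from 0 to at most 10. Centring on all probe sets was added after seeing the data. Signals under the array median in at least 1 group limit all measured members but Mmp9 and Plau.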
